A study of Sus scrofa with 9 samples.

Results

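The histone genes of the pig oocyte were the 70 genes, of 23507 in the count table, annotated in gene ontology as structural constituents of chromatin and are not named as another kind of gene. One further gene with the term, the neurofilament gene NEFH, was left out. By symbol alone, 14 were classed as variants (CENPA included), 26 as replication-type genes, whose symbols follow the naming of the clustered histones, and 30 had no name in the sources used here. The named members held 6 linker H1, 16 H2A, 9 H2B and 9 H3 genes, and no named H4 gene. As many as 42 members lie on chromosome 7, between bases 20464408 and 21936037, and 10 lie on chromosome 4, between bases 99168806 and 99219698. These positions are those of the deposited table (genome build not given in the sources used).

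RNA was measured in wild-type pig oocytes at metaphase of the second meiotic division (MII), matured in culture with their cumulus cells, in 3 groups of 3 libraries. HS+L-Asp oocytes were kept at 41.5 °C for 24 h from the germinal vesicle stage with L-Asp in the medium, at 0.5, 1.0 or 1.5 mmol/L, and the labels do not say which dose was sequenced. Heat-stressed (HS) oocytes had the same heat without L-Asp, and control oocytes stayed at 38.5 °C, to which both heated groups returned until MII. The labels give 25 oocytes per group and do not say whether libraries came from separate cultures or animals, so a p-value here speaks only of how far these libraries scatter.

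Histones package DNA into nucleosomes: H2A, H2B, H3 and H4 form the core, and an H1 linker histone binds the DNA between cores. Replication-type histone mRNAs are made in S phase and mostly end in a stem-loop in place of a poly(A) tail, whereas variant histone mRNAs are polyadenylated and made at any time. The oocyte has a linker histone of its own, H1-8, and stores histone RNA and protein for the embryo. The cDNA was primed with oligo(dT), so stem-loop mRNAs enter only in part, and loss of an RNA and shortening of its poly(A) tail cannot be told apart. In pools of cells, fewer cells of a type and less RNA per cell cannot be told apart either.

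Libraries held 41693395 to 49008681 counts in the HS+L-Asp group, 46198885 to 53327419 in the HS group and 54965064 to 58361475 in the control group. The control libraries differed from each other by little more than the sampling noise (median squared difference 5.19 to 5.22 times that of independent counts, where 1 fragment appeared as about 4 counts), against 79.4 to 84.9 times among HS+L-Asp and 109 to 119 times among HS libraries. They were counted as 1 sample in every test, and control values below carry no SD. Mitochondrially encoded genes took 5.30% to 9.47% of counts in HS+L-Asp, 3.09% to 14.5% in HS and 10.0% to 10.1% in control libraries.

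Variant histones made up nearly all histone RNA captured in these libraries. Oligo(dT) priming takes up stem-loop mRNAs only in part, so the make-up of all histone RNA in the oocyte was not measured. Levels are given as counts scaled to a shared library size by TMM (CPM), which compare groups for 1 gene, and as the authors' deposited FPKM, which also allow for transcript length and compare genes. Only 4 members reached 100 CPM in any group, and all were variants: H1-8, H3-3B, H3-3A and H2AZ1. A further 7 members reached 10 CPM, 16 peaked between 1 and 10 CPM, and 43 stayed under 1 CPM. H1-8 and H3-3B together took 88.1% to 90.2% of histone CPM in HS+L-Asp libraries, 84.8% to 86.4% in HS libraries and 90.9% to 91.0% in control libraries. These shares of CPM do not allow for transcript length. Of the 26 replication-type genes, H2AC4 alone reached 10 CPM and 17 stayed under 1 CPM.

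**Figure D1:**
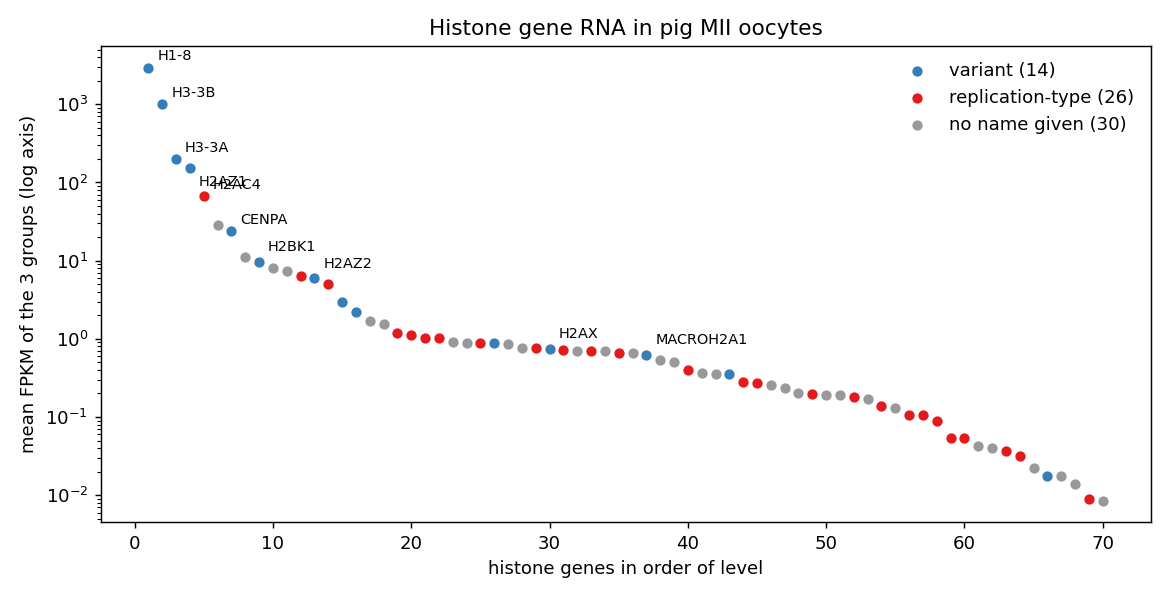
Level of each of the 70 histone genes as the mean FPKM of the 3 groups (log axis), in descending order, coloured by class. H1-8 and H3-3B stand at the top, H2AC4 is the highest replication-type gene, and most members lie near or under 1 FPKM.

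None of the 70 histone genes passed the test in any comparison. The test was edgeR's quasi-likelihood test over 15012 genes. In each of the 3 comparisons, 0 histone genes and 0% of all genes had an adjusted p (Benjamini-Hochberg) under 0.05. DESeq2 also called 0 histone genes in each. Of 22258 genes fitted, DESeq2 called 64 for HS+L-Asp against control, 172 for HS against control and 183 for HS+L-Asp against HS. Those are a small part of all genes, so 0 calls among 70 members says little about histone genes. Of the members, 49 passed the filter on low counts and were tested. At an unadjusted p under 0.05 there were 3 members for HS+L-Asp against control (H2AC4, H2BK1 and ENSSSCG00000057847), against 3.22% of all genes tested. There was 1 for HS against control (H2BK1), against 3.86%, and 3 for HS+L-Asp against HS (H1-8, H3-3A and H2BC26), against 6.61%. The differences that follow are therefore given as values with their errors.

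H1-8 (ENSSSCG00000011591, chr13:68938024-68942744, plus strand), the linker histone of oocytes and early embryos, was the most abundant histone RNA. It measured 3628, 3674 and 4283 CPM in HS+L-Asp libraries, 2293, 3039 and 3137 CPM in HS libraries, and 4208, 4220 and 4152 CPM in control libraries. All HS libraries lay below all libraries of both other groups, and the HS+L-Asp libraries overlapped the control libraries. The log2 fold change was 0.45 ± 0.20 (SE) for HS+L-Asp over HS (adjusted p = 0.738, edgeR). It was -0.57 ± 0.27 for HS over control (adjusted p = 1.0, edgeR) and -0.12 ± 0.28 for HS+L-Asp over control (adjusted p = 1.0, edgeR). By length-scaled level, H1-8 averaged 3220 ± 275 FPKM in HS+L-Asp libraries, where it ranked 22nd among all genes, and 2412 ± 475 FPKM in HS libraries, where it ranked 24th (SD, n = 3 each). Control libraries averaged 3210 FPKM, and H1-8 ranked 23rd there.

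The other linker histones described here were scarce. H1-6, known as the testis linker histone, measured 2.03 to 3.07 CPM in HS+L-Asp, 1.79 to 4.79 CPM in HS and 0.749 to 0.847 CPM in control libraries. Both heated groups lay above every control library, with log2 fold changes over control of 1.65 for HS+L-Asp and 2.11 ± 1.17 for HS (adjusted p = 1.0, edgeR). H1-10, a linker histone made outside replication, measured 1.11 to 2.53 CPM in HS+L-Asp, 0.425 to 2.33 CPM in HS and 0.458 to 0.905 CPM in control libraries. H1-7 was not among the members.

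H3.3, the H3 variant placed outside replication by the HIRA and DAXX-ATRX chaperones, is encoded by H3-3A and H3-3B, whose proteins are the same. H3-3B (ENSSSCG00000017202, chr12:5632365-5634726, plus strand) measured 1890, 1762 and 1583 CPM in HS+L-Asp, 2254, 1471 and 1636 CPM in HS, and 2496, 2511 and 2496 CPM in control libraries. Every heated library, with or without L-Asp, lay below every control library, and the heated groups overlapped each other. The log2 fold change of H3-3B over control was -0.52 ± 0.29 for HS+L-Asp and -0.49 ± 0.29 for HS, both with adjusted p = 1.0 by edgeR.

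H3-3A (ENSSSCG00000023971, chr10:13923077-13948484, plus strand) had another order of groups. It measured 215, 264 and 218 CPM in HS+L-Asp, 347, 396 and 298 CPM in HS, and 228, 238 and 228 CPM in control libraries. All HS libraries lay above all libraries of both other groups, which overlapped. The log2 fold change was -0.58 ± 0.20 for HS+L-Asp over HS (adjusted p = 0.738, edgeR) and 0.58 ± 0.29 for HS over control (adjusted p = 1.0). For HS+L-Asp over control it was 0.00 ± 0.28. H3-3A supplied 14.1% to 17.8% of H3.3 FPKM in HS+L-Asp, 18.2% to 28.1% in HS and 11.7% to 12.1% in control libraries. These shares did not overlap between any pair of groups, and no test was made of them.

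**Figure D2:**
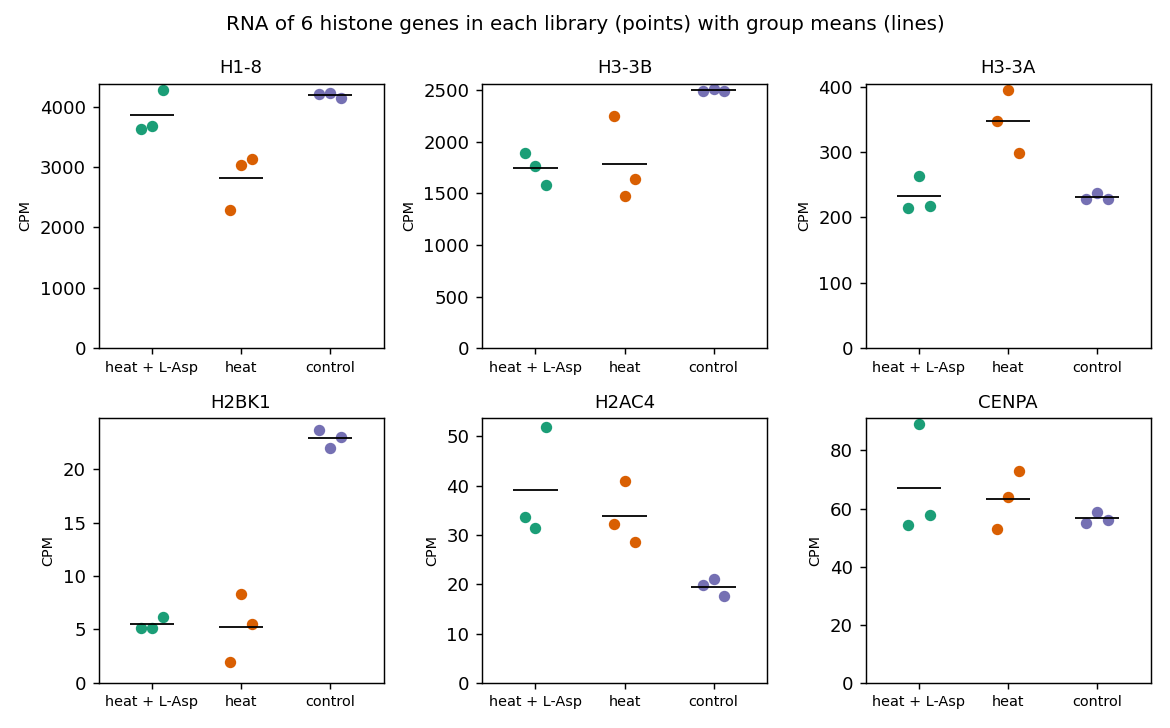
CPM of 6 histone genes in each library (points) with group means (lines), on axes that start at 0. H1-8 is lowest and H3-3A highest in the HS group, H3-3B and H2BK1 lie below control in both heated groups, H2AC4 lies above control in both, and CENPA overlaps.

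H2BK1 (ENSSSCG00000049336, chr18:6019516-6022584, plus strand), a divergent H2B variant known from the mammalian female germline, had the largest fold difference among members of at least 10 CPM. It measured 5.13, 5.17 and 6.18 CPM in HS+L-Asp, 1.92, 8.28 and 5.54 CPM in HS, and 23.7, 21.97 and 23.1 CPM in control libraries. The highest heated library, at 8.28 CPM, lay below the lowest control library, at 21.97 CPM. HS+L-Asp stood at 24.0% of the control level (log2 fold change -2.06 ± 0.68, adjusted p = 1.0, edgeR) and HS at 23.0% of it (-2.12 ± 0.68, adjusted p = 0.828). HS+L-Asp over HS gave 0.07 ± 0.53. The call depends on how the control libraries are counted. With the control libraries entered as 3 samples, H2BK1 passed against control for HS+L-Asp (adjusted p = 0.0421) and for HS (adjusted p = 0.0269), the single member to do so, among 1.79% and 2.88% of all genes tested. It was under the threshold in no other alternative apart from the fit with a replicate block, which also used 3 control samples.

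H2A variants differed little between groups relative to their errors. H2AZ1, an H2A.Z gene whose protein marks promoters, measured 178, 205 and 175 CPM in HS+L-Asp, 199, 151 and 207 CPM in HS, and 227, 230 and 232 CPM in control libraries. H2AZ2, the other H2A.Z gene, averaged 38.9 ± 2.1 CPM in HS+L-Asp and 39.1 ± 4.3 CPM in HS (SD, n = 3 each), against 46.1 CPM in control. Both H2A.Z genes lay below every control library in both heated groups, with log2 fold changes of -0.24 to -0.31 and adjusted p = 1.0 (edgeR). H2AZ1 made up about 96% of H2A.Z FPKM, with library values of 96.0% to 96.4% in HS+L-Asp, 95.9% to 96.5% in HS and 96.3% to 96.5% in control. This share depends on the transcript lengths behind the FPKM. In HS+L-Asp, H2AZ1 averaged 186 CPM and 146 FPKM, and H2AZ2 averaged 38.9 CPM and 5.73 FPKM.

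MACROH2A1, an H2A with a large extra domain linked to silent chromatin, measured 8.03, 13.3 and 14.5 CPM in HS+L-Asp, 13.3, 10.8 and 12.3 CPM in HS, and 8.73, 8.58 and 7.22 CPM in control libraries. Its HS libraries lay above the control libraries and its HS+L-Asp libraries overlapped them. MACROH2A2 was at 0 in 7 of 9 libraries and reached at most 0.264 CPM. H2AJ, a variant close to replication-type H2A, measured 0.869 to 2.11 CPM in HS+L-Asp, 1.19 to 3.76 CPM in HS and 0.693 to 1.22 CPM in control libraries. H2AX, whose phosphorylated protein marks DNA breaks, stayed at 0.0811 to 0.647 CPM in HS+L-Asp, 0 to 1.23 CPM in HS and 0.191 to 0.364 CPM in control libraries. H2AX groups overlapped, and MACROH2A2 did not pass the filter on low counts and was not tested.

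CENPA, the H3 variant of centromeres, measured 54.5, 89.2 and 57.8 CPM in HS+L-Asp, 53.0, 63.9 and 72.9 CPM in HS, and 55.1, 58.7 and 55.9 CPM in control libraries. The 3 groups overlapped, and no log2 fold change passed 0.25 in size. Its loading factors MIS18A and HJURP also gave no call: HJURP averaged 6.76 ± 0.93 CPM in HS+L-Asp and 3.76 ± 0.78 CPM in HS (SD, n = 3 each), against 6.78 CPM in control.

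**Figure D3:**
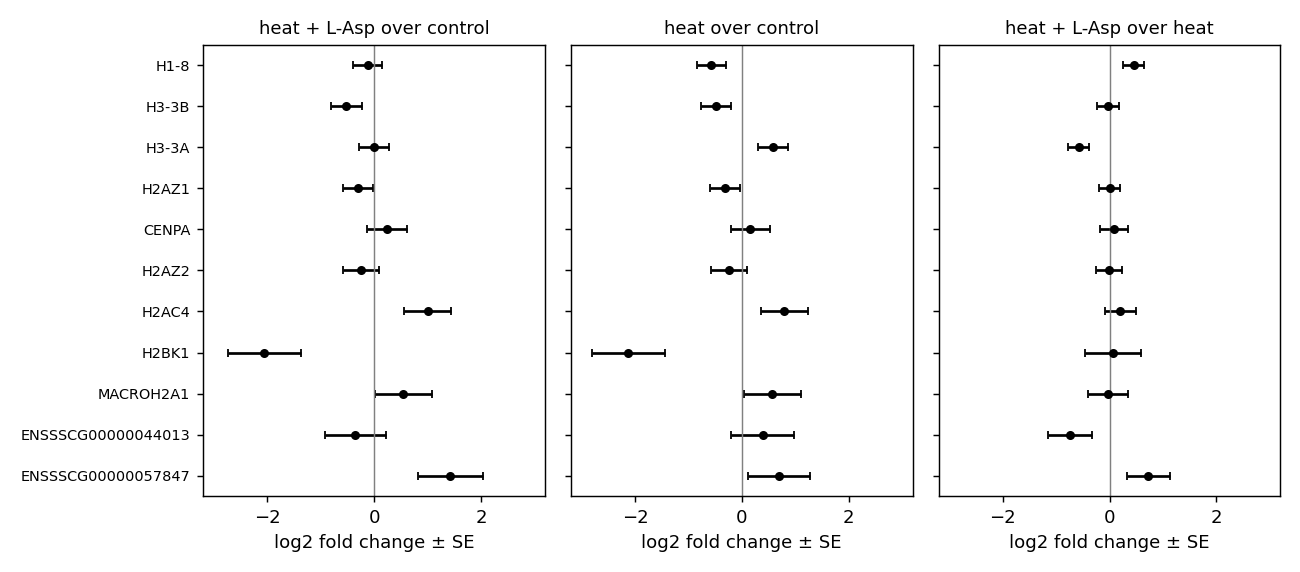
Log2 fold change ± SE (edgeR) of the 11 histone genes that reached 10 CPM in a group, for HS+L-Asp over control, HS over control and HS+L-Asp over HS. H2BK1 is near -2 in both comparisons with control and near 0 between the heated groups, and no value passed the test.

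Replication-type histone RNA, as far as it was captured, was low and lay above control in the heated groups. Summed over the 26 genes it was 63.4 ± 15.1 CPM in HS+L-Asp and 63.3 ± 10.6 CPM in HS (SD, n = 3 each), against 34.4 CPM in control. The libraries ranged over 52.4 to 80.6 CPM in HS+L-Asp, 53.7 to 74.7 CPM in HS and 31.0 to 36.8 CPM in control, so both heated groups cleared the control and overlapped each other. Without H2AC4, the sums were 24.4 ± 5.2 CPM in HS+L-Asp and 29.4 ± 4.3 CPM in HS, against 14.9 CPM in control. The 30 members with no name summed to 49.5 ± 5.1 CPM in HS+L-Asp and 54.0 ± 6.0 CPM in HS, against 34.7 CPM in control. Most of this came from the 2 most abundant of them, which overlap several other genes. Without those 2, the sums were 15.6 ± 2.4 CPM in HS+L-Asp and 18.8 ± 3.9 CPM in HS, against 9.71 CPM in control. The variants were highest in control, with 6155 ± 196 CPM in HS+L-Asp and 5271 ± 127 CPM in HS, against 7292 CPM in control. Leaving out H1-8 and H3-3B, the variant sums were 549 ± 67 CPM in HS+L-Asp and 662 ± 15 CPM in HS, against 598 CPM in control. Scaled by library totals in place of TMM, the sum over all variants lay nearer to control in HS+L-Asp. It was then 6243 CPM in HS+L-Asp and 5385 CPM in HS, against 6552 CPM in control.

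**Figure D4:**
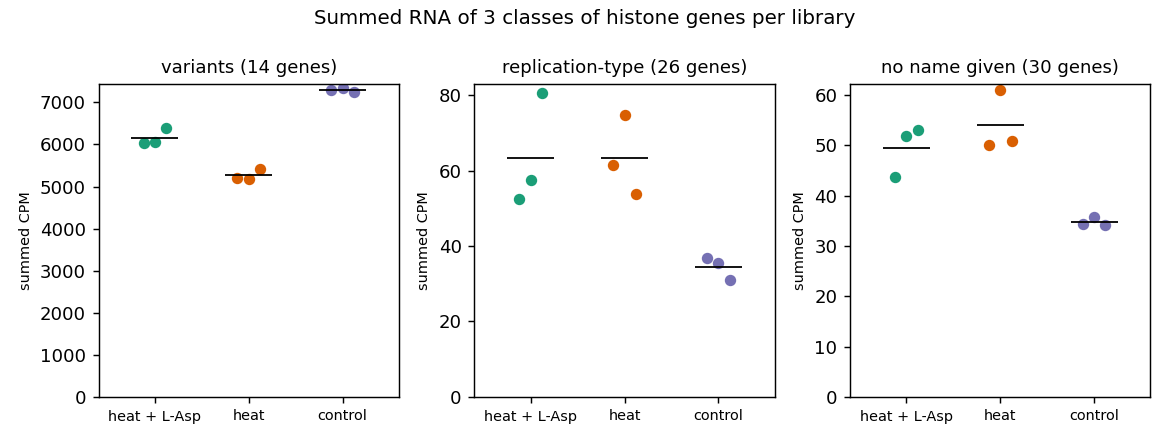
Summed CPM of the variant, replication-type and unnamed histone genes in each library (points) with group means (lines), on axes that start at 0. Variant sums are highest in control, while replication-type and unnamed sums are lowest there.

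H2AC4 (ENSSSCG00000054693, chr7:20729997-20730389, minus strand), a replication-type H2A gene, gave most of the CPM of that class. It measured 33.7, 31.5 and 51.9 CPM in HS+L-Asp, 32.3, 40.95 and 28.5 CPM in HS, and 19.8, 21.1 and 17.6 CPM in control libraries. All heated libraries exceeded all control libraries. The log2 fold change over control was 1.00 ± 0.44 for HS+L-Asp (adjusted p = 1.0, edgeR) and 0.80 ± 0.43 for HS (adjusted p = 1.0). By FPKM it was the highest replication-type gene, at 84.3 ± 23.5 in HS+L-Asp and 75.6 ± 20.2 in HS (SD, n = 3 each), against 38.7 in control.

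H2AC1 and H2BC1, a head-to-head pair on chromosome 7 with 325 bases between them, encode core histones best known from testis (TH2A and TH2B, also found in mouse oocytes) and are counted as replication-type by their symbols alone. Without both genes, the replication-type sum over the 24 others was 56.6 ± 15.1 CPM in HS+L-Asp and 57.2 ± 8.3 CPM in HS (SD, n = 3 each), against 31.6 CPM in control. H2AC1 measured 3.18, 6.08 and 3.77 CPM in HS+L-Asp, 3.65, 5.20 and 1.61 CPM in HS, and 1.17, 1.28 and 0.905 CPM in control libraries, and neither heated group overlapped control. H2BC1 measured 1.16, 3.64 and 2.79 CPM in HS+L-Asp, 1.40, 3.60 and 2.78 CPM in HS, and 2.27, 1.24 and 1.60 CPM in control libraries, and all groups overlapped. In both genes the second library of each heated group was the highest of its group. The log2 fold change of H2AC1 over control was 1.96 for HS+L-Asp and 1.65 ± 1.04 for HS, each with adjusted p = 1.0 (edgeR).

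H2BC21, a replication-type H2B gene known to give polyadenylated mRNA in human cells, varied widely within the heated groups. It measured 1.24, 0.364 and 2.11 CPM in HS+L-Asp, 6.14, 0.214 and 5.04 CPM in HS, and 0.931, 1.11 and 0.924 CPM in control libraries. The unnamed gene ENSSSCG00000060759, near it on chromosome 4, measured 0.304, 0.0202 and 0.734 CPM in HS+L-Asp, 2.63, 0.526 and 2.14 CPM in HS, and 0.243, 0.248 and 0.212 CPM in control libraries. In both genes the second library of the HS and HS+L-Asp groups was the lowest of its group.

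Counted over all 70 members, tested or not, the libraries of HS+L-Asp lay wholly above control for 11 genes (9.48% of all genes of the table did) and wholly below it for 7 (15.5%). For HS against control the counts were 20 above (9.14% of all genes) and 7 below (15.3%). The 20 were 3 variants, 9 replication-type genes and 8 unnamed genes, and the 7 were 5 variants, 0 replication-type genes and 2 unnamed genes. The 9 replication-type genes were H2AC1, H2AC4, H2AC6, H2AC11, H2AC12, H2AC17, H2BC18, H3C2 and H3C10. Some of these rest on few counts. H2AC6 held 10, 11 and 21 counts in HS libraries and 0 in control. H3C2 held 15, 24 and 31 counts in HS and 11, 8 and 13 in control. H3C10 held 17, 55 and 14 counts in HS and 6, 7 and 11 in control. H2AC17 and H3C10 also overlap other genes, so they cannot be read alone. For HS+L-Asp against HS, 1 member lay wholly above (H1-8, 4.44% of all genes) and 4 wholly below (3.83%). Both comparisons with control use the same control libraries, whose close spread makes such separation easier for every gene.

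Among the 49 members tested, the median log2 fold change was 0.58 for HS+L-Asp over control (median of all genes tested 0.01), 0.83 for HS over control (0.00) and -0.27 for HS+L-Asp over HS (-0.01). A member could enter the test through 1 group alone, so these medians only describe the genes tested. They also rest on single libraries: without the second HS library the HS median was 0.48, and without the second HS+L-Asp library the HS+L-Asp median was 0.23 over control. Between the heated groups, the median without the first HS+L-Asp library was -0.03 and without the second HS library -0.09. With 2 genes of a group at 0 set to their bound, the medians were 0.80 over control for HS and -0.27 for HS+L-Asp over HS. For HS+L-Asp over control 0 genes could be set to a bound. There 2 genes were left out as under the floor in both groups, and the median of the other 47 was 0.58.

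The medians differed by level. For HS over control, the 11 members of 10 CPM or more had a median log2 fold change of 0.16 (all genes of that level -0.01). The 14 members of 1 to 10 CPM had 1.05 with all 14 above 0 (all genes 0.04, with 52.1% above 0). The 24 members under 1 CPM had 1.03 (all genes -0.02). All members share the same control libraries and some may share reads, so they are not independent of each other. For HS+L-Asp over control the medians in the same classes were -0.12, 0.70 and 0.60.

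**Figure D5:**
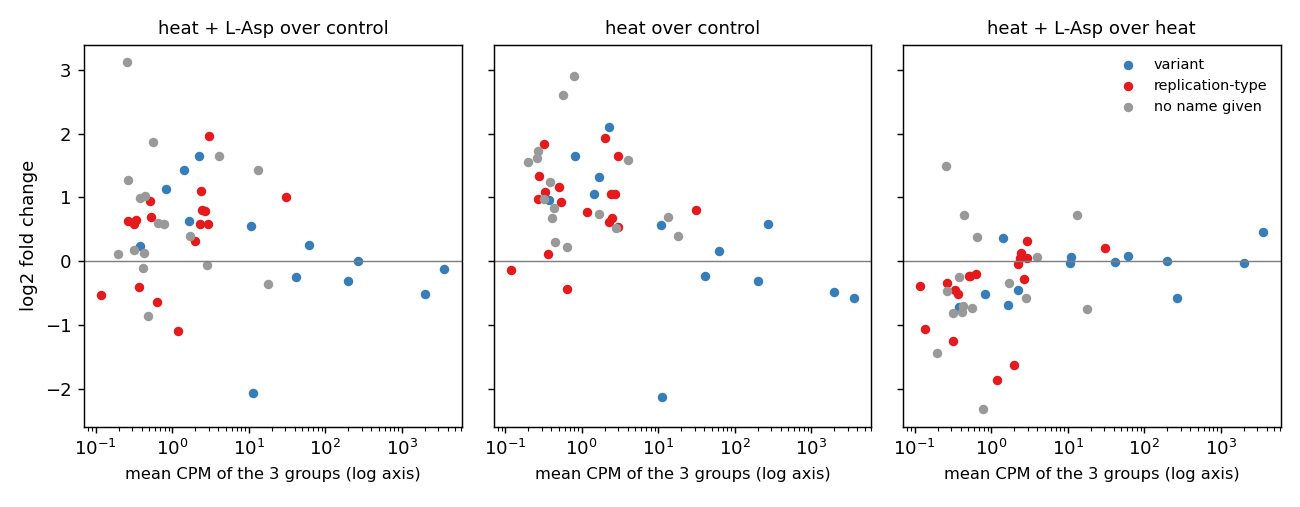
Log2 fold change (edgeR) against mean CPM of the 3 groups (log axis) for the tested histone genes, coloured by class, with 47 genes in each panel and 2 left out because a group was at 0. In HS over control the genes under 10 CPM lie mostly above 0, and the most abundant variants lie near or below it.

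Low members were seen at few counts. In a library, 38 to 42 members in HS+L-Asp, 44 to 47 in HS and 37 to 40 in control held at least 3 fragments (12 counts, 0.206 to 0.288 CPM), although control libraries were the deepest. Of all members, 25 reached that floor in every library and 11 in none. H2BC26, a replication-type H2B gene that overlaps H2AC25, was at 0 in all HS+L-Asp libraries, 0.55, 1.23 and 0 CPM in HS, and 0.28, 0.31 and 0.12 CPM in control libraries. For HS+L-Asp against HS its adjusted p was 0.738 (edgeR), and no fold is given against a group at 0.

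Some members cannot be read alone. Replication-type histone genes are near-identical copies, and no source used here says how the authors' counting shared reads among them, so single genes of that class and the unnamed members are uncertain. The unnamed genes ENSSSCG00000057447 and ENSSSCG00000057512, 8806 bases apart on chromosome 4, held 188 and 194 counts over all libraries and differed by less than the sampling noise (chi-square over degrees of freedom 0.197). In all, 17 members overlap another gene, 16 of them a gene on the opposite strand, and the library kit does not mark strand. The 2 most abundant unnamed members are of this kind. ENSSSCG00000057847, which overlaps 8 genes on chromosome 7, averaged 20.2 ± 8.1 CPM in HS+L-Asp and 12.2 ± 3.5 CPM in HS, against 7.55 CPM in control (HS+L-Asp over control adjusted p = 1.0, edgeR). ENSSSCG00000044013, which overlaps 4 genes there, averaged 13.7 ± 6.7 CPM in HS+L-Asp and 22.9 ± 1.4 CPM in HS, against 17.5 CPM in control (SD, n = 3 for each heated group).

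Markers of other cells differed between the groups as well. Of 24 cumulus and granulosa genes in the table, the summed level was 1203 to 1252 CPM in HS+L-Asp, 1235 to 1603 CPM in HS and 1177 to 1213 CPM in control libraries. Nearly all of it came from RGS2, VCAN and GATA4, and RGS2 alone measured 805 to 934 CPM in HS+L-Asp, 853 to 1321 CPM in HS and 925 to 954 CPM in control libraries. The 21 others summed to 37.6 to 54.3 CPM in HS+L-Asp, 54.9 to 82.9 CPM in HS and 35.3 to 38.0 CPM in control libraries. In HS+L-Asp libraries only PTX3 was at 0 throughout, in HS libraries LHCGR, AMH, NR5A1 and PTX3 were, and in control libraries 7 genes were, LHCGR, INHBA, INHBB, AMH, GATA6, PTX3 and EREG. CYP11A1, a steroid-making enzyme of granulosa cells, averaged 3.27 ± 3.94 CPM in HS+L-Asp and 9.16 ± 5.18 CPM in HS, against 0.0385 CPM in control. GJA1, a gap junction protein, averaged 4.55 ± 2.75 CPM in HS+L-Asp and 9.16 ± 3.64 CPM in HS, against 0.806 CPM in control (SD, n = 3 for each heated group). PGR went the other way, at 6.04 to 8.43 CPM in HS+L-Asp, 7.31 to 8.42 CPM in HS and 10.45 to 11.12 CPM in control libraries. SERPINE2 lay wholly below control in HS+L-Asp and wholly above it in HS. In this list, 8 genes lay wholly above control and 2 wholly below for HS+L-Asp, and 8 above and 1 below for HS. Of the 17 tested, 12 lay above 0 and 5 below for both comparisons with control, with 0 called by edgeR. Of the 24, DESeq2 called 2 for HS+L-Asp and 5 for HS over control. Over all 22258 genes it called 64 for HS+L-Asp and 172 for HS. The part of the cumulus and granulosa genes in the replication-type and unnamed histone values was not tested.

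The 16 oocyte genes summed to 20680 to 23880 CPM in HS+L-Asp, 16400 to 20930 CPM in HS and 32310 to 32560 CPM in control libraries. BTG4, an oocyte factor of mRNA decay, and BMP15, an oocyte growth factor, carried most of that difference, at 8001 to 11980 CPM together in HS+L-Asp, 7858 to 10200 CPM in HS and 20870 to 21150 CPM in control libraries. The 14 others summed to 10770 to 15880 CPM in HS+L-Asp, which spanned the control range, 7345 to 10730 CPM in HS and 11410 to 11470 CPM in control libraries. For HS+L-Asp over control 6 of the 16 lay above 0 and 10 below, and for HS over control 5 lay above and 11 below. The zona pellucida gene ZP4 was among those above, at 1653 ± 284 CPM in HS+L-Asp and 1142 ± 409 CPM in HS, against 706 CPM in control (SD, n = 3 for each heated group). The part of these oocyte genes in the H1-8, H3-3B and H2BK1 values was not tested. The 14 S phase genes, which mark replicating cells and are also stored by oocytes, summed to 8594 to 10150 CPM in HS+L-Asp, 7078 to 9460 CPM in HS and 9919 to 10130 CPM in control libraries. PCNA, the DNA polymerase clamp, supplied most of this, and the 13 others summed to 1431 to 1562 CPM in HS+L-Asp, 1274 to 1500 CPM in HS and 1481 to 1510 CPM in control libraries. For HS+L-Asp over control 11 of the 14 lay above 0 and 3 below, and for HS over control 7 lay above and 7 below. Theca and stroma genes together summed to at most 10.8 CPM in an HS+L-Asp library, 9.78 CPM in HS and 12.5 CPM in control. Blood and immune genes together summed to at most 2.40 CPM in an HS+L-Asp library, 5.10 CPM in HS and 1.07 CPM in control.

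The genes that carry, process and modify histones gave 0 calls in all comparisons, by edgeR and by DESeq2, which called few of all genes, as given above. At an unadjusted p under 0.05, edgeR counted 3 genes of these lists for HS+L-Asp over control, 3 for HS over control and 7 for HS+L-Asp over HS. Of the 122 genes tested these are 2.46% for HS+L-Asp over control (3.22% of all genes tested), 2.46% for HS over control (3.86%) and 5.74% for HS+L-Asp over HS (6.61%). Of 40 chaperones and assembly factors tested, 15 lay above 0 and 25 below for HS+L-Asp over control, 18 above and 22 below for HS over control, and 16 above and 24 below for HS+L-Asp over HS. ANP32B, a histone-binding protein, averaged 771 ± 100 CPM in HS+L-Asp and 820 ± 266 CPM in HS, against 427 CPM in control. ASF1B, an H3-H4 chaperone, averaged 187 ± 36 CPM in HS+L-Asp and 144 ± 23 CPM in HS, against 252 CPM in control. DAXX, which places H3.3, averaged 20.2 ± 8.3 CPM in HS+L-Asp and 10.4 ± 2.8 CPM in HS, against 16.1 CPM in control. NPM2, the egg nucleoplasmin that stores H2A and H2B, averaged 232 ± 46 CPM in HS+L-Asp and 291 ± 92 CPM in HS, against 294 CPM in control.

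Of 20 genes for histone mRNA 3' ends and decay, 7 lay above 0 and 13 below for HS+L-Asp over control, 12 above and 8 below for HS over control, and 6 above and 14 below for HS+L-Asp over HS. SLBP, which binds the histone mRNA stem-loop, averaged 297 ± 42 CPM in HS+L-Asp and 224 ± 7 CPM in HS, against 384 CPM in control. Its log2 fold change for HS over control was -0.78 ± 0.26 (adjusted p = 0.839, edgeR). The replication-type sum lay above control, and a link between SLBP and that sum was not tested. The Sm ring protein SNRPF averaged 1397 ± 191 CPM in HS+L-Asp and 1169 ± 149 CPM in HS, against 822 CPM in control. Of 62 modifying enzymes, 28 lay above 0 and 34 below for HS+L-Asp over control, 30 above and 32 below for HS over control, and 33 above and 29 below for HS+L-Asp over HS. AURKB, a kinase of histone H3 in division, averaged 67.9 ± 20.3 CPM in HS+L-Asp and 69.5 ± 21.1 CPM in HS, against 128 CPM in control, and HDAC2, a histone deacetylase, 30.8 ± 10.2 CPM in HS+L-Asp and 57.0 ± 18.3 CPM in HS, against 37.4 CPM in control (SD, n = 3 for each heated group).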

How the data were processed

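Per the file headers, the deposited table holds gene counts and FPKM per library for 23507 genes, made by the authors from paired-end reads. Tools listed in the submitters' processing notes are edgeR, DESeq2, StringTie 2.1.6, HISAT2 2.2.1 and cutadapt 1.9, with no roles, and no source used here gives the counting method or genome build. Per the labels' protocols, cDNA was primed with oligo(dT) and amplified by PCR, so counts are not independent molecules. The table's 6 further per-sample columns were not used.

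Groups came from the sample titles. Counts were filtered by filterByExpr on 9 libraries, scaled by TMM and tested with edgeR 4.0.16 (glmQLFit robust, glmQLFTest) in R 4.3.3, with 1 mean per group and the rounded mean of the 3 control libraries as 1 of 7 libraries, leaving 4 residual degrees of freedom. SEs came from the fold change and its F value. Counts of genes not overlapping between groups used CPM of all 9 libraries. Alternatives covered DESeq2 1.42.0, other scalings and filters, left-out libraries, a replicate block and 9 libraries. Members and lists were chosen with earlier results of these data known. Named members had 10 CPM in a group, an unadjusted p under 0.05 or a fixed place as a variant. H1-6, H2AC1, H2BC1, H2BC21, ENSSSCG00000060759 and the genes listed as not overlapping were named after their values were seen. The same holds for single marker genes and for giving H2BK1 and H2AC4 per library. No member sequence was used here. One member named by that rule is not reported here.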

Additional observations from a re-analysis of the deposited data

How the results depend on the processing

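The 0 histone calls held under every alternative run except 2. With the control libraries as 3 samples, and with a replicate block in the same 3-sample fit, 1 histone gene (H2BK1) was called for HS+L-Asp and 1 for HS against control. Calls over all genes, 0 in each comparison as reported, moved further. With 3 control samples there were 269 for HS+L-Asp against control, 433 for HS against control and 2 for HS+L-Asp against HS, and DESeq2 gave 64 for HS+L-Asp against control, 172 for HS against control and 183 for HS+L-Asp against HS. Without the filter the calls were 3 for HS+L-Asp against control, 9 for HS against control and 2 for HS+L-Asp against HS, the filter on 7 libraries gave 2 for HS+L-Asp against HS, and fitting only the groups compared gave 1 for HS+L-Asp against control. Leaving out single libraries gave 0 to 1 calls for each comparison with control and 0 to 3 for HS+L-Asp against HS.

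The replicate numbers gave no clear pairing of the libraries (correlations of deviations -0.05 to 0.18 for the same number, -0.14 to 0.10 for different numbers). The highest value, 0.18, was that of HS and HS+L-Asp replicate 1. Control libraries this alike can show little pairing, so the check does not settle whether libraries were paired. The block gave 223 calls over all genes for HS+L-Asp against control and 378 for HS against control.

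Leaving out single libraries, the median log2 fold change of tested histone genes was 0.23 to 0.69 for HS+L-Asp over control, 0.48 to 1.06 for HS over control and -0.39 to -0.03 for HS+L-Asp over HS. Restricted to the 36 members that overlap no other gene, an alternative added after seeing the data, the medians were 0.58 for HS+L-Asp over control, 0.96 for HS over control and -0.23 for HS+L-Asp over HS. Library totals in place of TMM moved the median of all genes to 0.18 for HS+L-Asp and 0.19 for HS over control. They set the variant sums at 6243 CPM in HS+L-Asp (6120 to 6462), 5385 CPM in HS (5173 to 5760) and 6552 CPM in control (6508 to 6593). HS+L-Asp thus lay nearer to control than under TMM, so the size of that difference depends on the scaling. The replication-type sums were 64.3 CPM in HS+L-Asp, 65.3 CPM in HS and 30.9 CPM in control. The unnamed sums were 50.2 CPM in HS+L-Asp, 55.5 CPM in HS and 31.2 CPM in control. Adding 3 histone-named genes without the term set the replication-type sums at 81.8 CPM in HS+L-Asp, 78.8 CPM in HS and 42.5 CPM in control.

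The fold changes of single genes with at least 10 CPM and an unadjusted p under 0.15 kept their sign in all 247 values recomputed. These genes were picked by their p in the same libraries, so the kept signs say little about how firm the differences are. H2BK1 ranged from -2.15 to -1.88 for HS+L-Asp over control and from -2.61 to -1.73 for HS over control. Of the 70 members, 43 stayed under 1 CPM in every group, close to the floor of 0.206 to 0.288 CPM, so their values carry a large counting error.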
